A study of Mus musculus with 20 samples.

Results

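The 10 genes described here encode parts of the epithelial basement membrane: the collagen IV chains *Col4a1*, *Col4a2*, *Col4a5* and *Col4a6*, the laminin chains *Lama5* and *Lamc1*, the nidogens *Nid1* and *Nid2*, and the heparan sulfate proteoglycans *Hspg2* (perlecan) and *Col18a1* (collagen XVIII). They were taken by symbol from a table of 24552 genes, and all 10 are in it. The table covers 20 libraries of corneal epithelium from naïve wild-type female C57BL/6J mice, in 4 groups of 5. The groups were aged 2 to 3 months (young), 12 to 13 months (12-month), 18 to 19 months (18-month) and 24 to 25 months (24-month), and the 3 older groups together are called aged. Each library held the epithelium that was removed by debridement from both corneas of 1 animal. The animals carried no transgene or treatment by their labels. The study asked how the transcriptome of this epithelium differs with age.

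The corneal epithelium rests on a thin basement membrane that its basal cells and the keratocytes of the stroma beneath both help to build. Laminin forms the sheet that basal cells grip through integrins, collagen IV forms a second, covalently linked network, and nidogens and heparan sulfate proteoglycans tie these layers together. Collagen IV is secreted as heterotrimers, in which α1 chains pair with α2 chains, and α5 chains with α6 or other chains. Laminin α5 and γ1 chains join a β chain to make a laminin that is common in adult epithelia.

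The collagen IV genes lie head to head in pairs, and the sequences at their starts are shown for that reason. Starts are those of the promoter windows described below (RefSeq, GRCm38.p6). That of *Col4a1* (minus strand) is base 11312826 of chromosome 8 and that of *Col4a2* (plus strand) base 11312805. From 1 start to the other, both included, are 22 bases, which lie in exons of both genes. They hold a GC box, the letters GGGCGG that Sp1-type factors can bind. The RefSeq gene of *Col4a1* reaches further, to base 11312889, so the genes overlap by more than these 22 bases. The starts of *Col4a6* (minus strand, 141474076) and *Col4a5* (plus strand, 141475419) on chromosome X are 1343 bases apart, and each gene has its own GC box close to its start. The RefSeq genes lie closer together, as *Col4a6* reaches to base 141474095 and *Col4a5* begins at base 141475370. The same letters lie near the starts of *Nid1*, the more abundant nidogen in these libraries, and *Lama5*. Each sequence is written 5′ to 3′ on the strand given, with the GC box or its reverse complement in capitals.
*Col4a1* and *Col4a2*, chr8:11312805-11312826, plus strand: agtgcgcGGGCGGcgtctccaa
*Col4a5*, chrX:141475377-141475406, plus strand: ccagcggggaggGGGCGGtgcagggaagag
*Col4a6*, chrX:141474080-141474109, minus strand: cagcaggcagccCCGCCCcgtccccctcca
*Nid1*, chr13:13437523-13437552, plus strand: gacaggcggggtGGGCGGgccctcccccat
*Lama5*, chr2:180225856-180225885, minus strand: cagcgggaccggCCGCCCcaaactagactt

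Promoter windows of 300 bases (250 before and 50 after the start) were given for 8 of the 10 genes, with *Col18a1* having 2 and *Lamc1* and *Nid2* none. On either strand, GGGCGG was present in a window of all 8 genes and in 35.7% of all 32851 windows, and CCAAT in 5 of the 8 and in 37.4% of windows. TATAAA was in none of the 8 and in 13.6% of windows. The GC content of the genes' windows ran from 48.3% (*Col4a6*) to 74% (*Col4a1*), with a median of 52.7% over all windows. These matches describe letters and were not tested as binding sites.

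The libraries were sequenced from the 3′ end of the RNA, and 6699383 to 10762360 reads per library fell on genes (median 8731334). The values below are normalized counts, that is reads divided by the size factor of the library (0.760 to 1.33). A count of 0 allows up to 3 reads by counting error alone, or 2.25 to 3.95 normalized counts depending on the library. Tests were run with limma on log2 values, over the 11288 genes that averaged 10 or more normalized counts. A differentially expressed gene (DEG) changed by 1.2-fold or more with an adjusted p-value (Benjamini-Hochberg) no higher than 0.05. Of the 10 genes, 8 passed this filter, and *Col4a2* (mean 9.75) and *Nid2* (mean 1.40) did not. In bulk tissue, fewer cells of a type and less RNA per cell cannot be told apart. The corneal identity of the samples was clear from their markers: *Krt12*, the keratin of differentiated corneal epithelium, had 203580 to 285895 normalized counts in every library, and 0 of 8 corneal epithelial markers were DEGs in aged against young. Young replicate 1 stood apart over all genes: the chi-square per degree of freedom of its counts against the other young libraries was 50.3 to 107.2, beside 11.3 to 46.7 for all other pairs of the same age. Its 10 most abundant genes took 34.9% of its reads, the highest share of the 20 libraries.

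None of the 8 tested genes was a DEG in any comparison of ages by limma. The paper, which used DESeq2 with the same 2 thresholds, names *Col4a1* among the DEGs of its pathway analysis, so the limma result differs from that call. In aged against young, 0 of 8 passed, beside 1.01% of all genes tested. With an unadjusted p-value below 0.05 there were 3 (*Col4a1*, *Col4a6* and *Nid1*, all lower), beside 7.89% of all genes in either direction and 3.92% of them lower. In 24-month against young, 0 of 8 passed (0.78% of all genes). There, 4 of the 8 reached an unadjusted p-value below 0.05 (these 3 and *Lama5*, which was higher), beside 9.97%. The counts were 0 of 8 in 18-month (0.673%) and in 12-month against young (0.532%), with 1 gene each below an unadjusted 0.05, *Nid1* (beside 7.18%) and *Col4a1* (beside 9.56%). Between the older ages, 0 of 8 passed in 18-month against 12-month (0.00886% of all genes) and in 24-month against 18-month (0%), and 0 had an unadjusted p-value below 0.05, beside 7.43% and 5.31%. Fitted to the recovered reads with voom, 1 of the 8 passed in aged against young, *Col4a1*, beside 162 of all 11288 genes, and 0 in the other comparisons. The fitted change was below 0 for 6 of 8 genes in aged and in 24-month against young, 5 at 18 months and 7 at 12 months, beside 51.3%, 49.3%, 50.2% and 51.7% of all genes. The median log2 fold change of the 8 genes was -0.50 in aged against young, -0.60 at 24 months, -0.45 at 18 months and -0.43 at 12 months, and that of all tested genes lay between -0.01 and 0.01. With a filter at 50, which keeps 4 of the genes, the medians were -0.20 in aged, -0.28 at 24 months and 0.035 at 18 months. Without young replicate 1, 0 of 8 genes were DEGs and the medians were -0.40 in aged, -0.50 at 24 months, -0.39 at 18 months and -0.52 at 12 months, while *Col4a1* and *Col4a6* differed by -1.91 and -1.35 at 24 months. The 3 age comparisons share the young libraries.

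**Figure D1:**
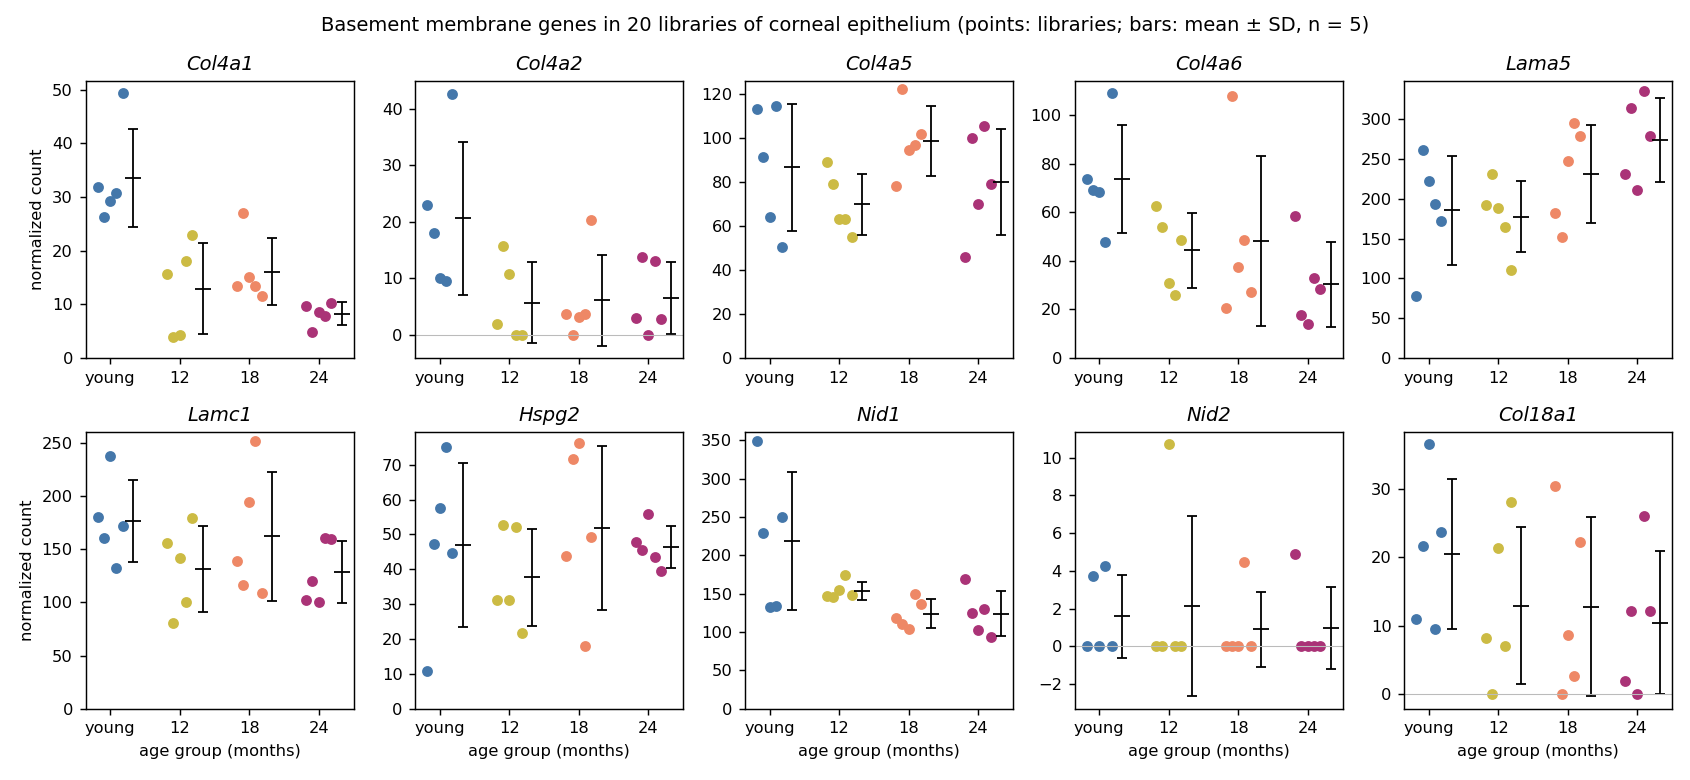
Normalized counts of the 10 genes (y axis, linear, a scale for each gene) in each library by age group (x axis, months), with 5 points per group and the mean ± SD as a black bar. *Col4a1* libraries at 24 months (4.88 to 10.4) and 12 months (3.95 to 22.9) all lie below the young ones (26.2 to 49.3), while *Col4a5* and *Hspg2* overlap between all ages.

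*Col4a1*, the α1 chain of the collagen IV network found in nearly all basement membranes, had a lower mean than young at every older age. The young libraries held 31.8, 26.2, 29.2, 30.7 and 49.3 normalized counts of it, and the 24-month libraries 9.75, 4.88, 8.51, 7.83 and 10.4. It stood at 15.6, 3.95, 4.29, 18.0 and 22.9 in the 12-month libraries and at 13.4, 27.0, 15.1, 13.4 and 11.6 in the 18-month ones. No library at 12 or 24 months reached the lowest young one, a lack of overlap seen toward lower values in 1.06% and 1.55% of all tested genes, and 14 of the 15 aged libraries lay below every young one. The group means were 33.5 ± 9.11 (SD, n = 5) in young, 13.0 ± 8.499 at 12 months, 16.1 ± 6.20 at 18 months and 8.27 ± 2.14 at 24 months. These rest on few reads, from 29 to 52 per young library and from 3 to 23 per aged one.

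The fitted log2 fold change of *Col4a1* was -1.90 ± 0.53 (SE) in 24-month against young, with a 95% confidence interval from -2.99 to -0.80 and a limma adjusted p of 0.110. It was -1.55 at 12 months (limma adjusted p = 0.277), -1.04 at 18 months (limma adjusted p = 0.715) and -1.50 ± 0.44 in aged against young (limma adjusted p = 0.127). Two-sided exact permutation tests of the single gene gave p = 0.00794 for 12 and for 24 months, the smallest that 5 against 5 can give, 0.0159 for 18 months, and 0.000516 for aged against young, where 6.45e-05 is the smallest possible. With voom the aged difference was -1.54 (adjusted p = 0.0217), and with a pseudocount of 10 it was -0.99 (limma adjusted p = 0.0440). Among the aged groups, every 24-month library lay below every 18-month one, as in 0.638% of genes, with a difference of -0.86 and a limma adjusted p of 0.927.

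*Col4a2*, the α2 chain that joins the same heterotrimers as α1, was less abundant in read number and more scattered. It had 23.02, 18.0, 10.05, 9.54 and 42.7 normalized counts in young and 2.93, 13.8, 0, 13.1 and 2.82 at 24 months. At 12 months the values were 1.84, 15.8, 10.7, 0 and 0, and at 18 months 3.66, 0, 3.18, 3.58 and 20.3. The young and aged ranges overlapped, with 10 of 15 aged libraries below every young one and 4 of the 15 at 0 reads. The group means were 20.7 ± 13.5 (SD, n = 5) in young, 5.67 ± 7.19 at 12 months, 6.15 ± 8.06 at 18 months and 6.53 ± 6.42 at 24 months. By exact permutation, two-sided, the p-values were 0.0099 for aged against young, 0.0476, 0.0317 and 0.0556 for 12, 18 and 24 months. The gene lay under the filter of the limma fit, and without the filter its adjusted p in limma was 0.261 for aged against young. Although *Col4a1* and *Col4a2* start within the same bases and were both lower on average in every aged group, they did not follow each other from library to library. Over the 20 libraries, r of their log2 values was 0.018, and it was -0.712 for deviations from the age means, values that share the library and its depth and rest in *Col4a2* on 0 to 45 reads.

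The second pair, *Col4a6* and *Col4a5*, differed from each other. *Col4a6*, the α6 chain of epithelial and smooth muscle basement membranes, had 73.4, 68.9, 68.5, 47.7 and 109 normalized counts in young and 58.5, 17.9, 14.2, 33.1 and 28.2 at 24 months. The 12-month libraries held 62.5, 53.9, 31.1, 26.1 and 48.4, and the 18-month libraries 20.7, 108, 37.3, 48.4 and 27.1. All older groups overlapped with young, and 4 of 5 libraries at 24 months, 3 of 5 at 18 months and 2 of 5 at 12 months lay below every young one. The means were 73.5 ± 22.2 (SD, n = 5), 44.4 ± 15.4, 48.3 ± 34.9 and 30.4 ± 17.5 from young to 24 months. On the log2 scale the change was -1.37 ± 0.42 (SE) at 24 months (95% confidence interval -2.23 to -0.50, limma adjusted p = 0.164) and -0.97 ± 0.35 in aged against young (limma adjusted p = 0.297). It was -0.74 at 12 months and -0.79 at 18 months, with limma adjusted p-values of 0.620 and 0.743.

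*Col4a5*, the α5 chain, is the partner of α6 in that heterotrimer and also enters others. Its means were 86.6 ± 28.8 (SD, n = 5) in young, 69.8 ± 13.9 at 12 months, 98.6 ± 15.8 at 18 months and 80.0 ± 24.0 at 24 months, and all 4 ranges overlapped between 45.8 and 122 normalized counts. The fitted log2 change was -0.10 at 24 months (95% confidence interval -0.67 to 0.46, limma adjusted p = 0.943) and -0.04 in aged against young (95% confidence interval -0.51 to 0.43). Differences within these intervals were not detectable at this depth and spread. Within a library, log2 *Col4a6* minus log2 *Col4a5* was -0.21 ± 0.88 (SD, n = 5) in young, -0.69 ± 0.43 at 12 months, -1.24 ± 0.70 at 18 months and -1.48 ± 1.10 at 24 months, with 4 of 5 libraries at 24 months and 3 of 5 at 18 months below every young one. This difference was computed after the values were seen and was not tested. The levels of *Col4a5* and *Col4a6* did not follow each other over the 20 libraries (r = -0.0171, and -0.0862 within ages).

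**Figure D2:**
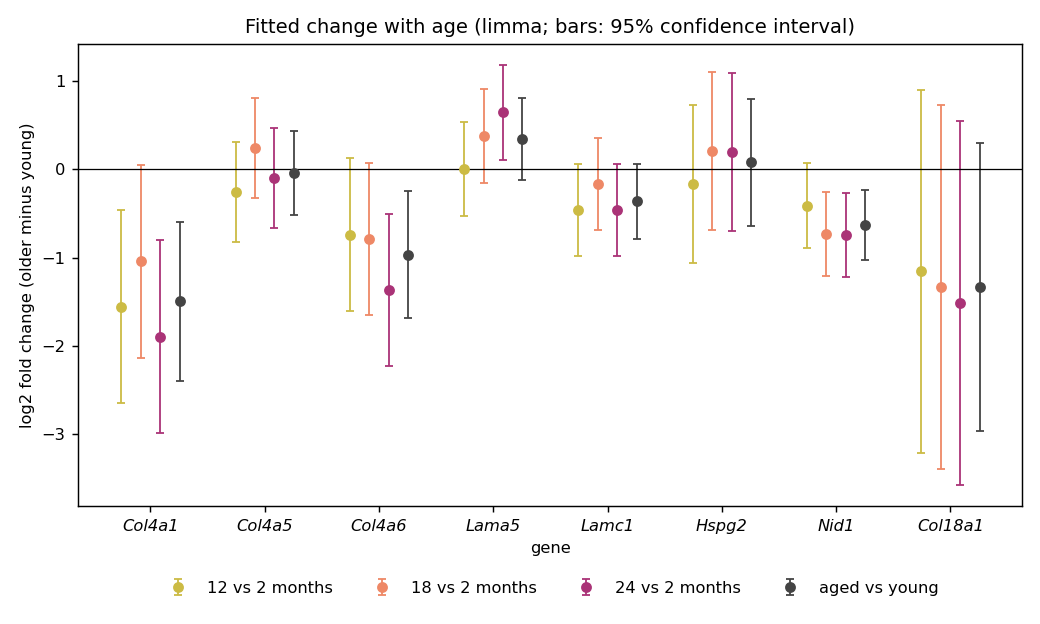
Log2 fold change (y axis, older minus young) of the 8 tested genes (x axis) in 12-, 18- and 24-month and in all aged libraries against young, fitted with limma. Points are estimates and bars 95% confidence intervals, unadjusted. The intervals of *Col4a1*, *Col4a6* and *Nid1* at 24 months lie below 0 and that of *Lama5* at 24 months above 0. Those of *Col4a5*, *Lamc1*, *Hspg2* and *Col18a1* cross 0 in every comparison shown.

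The laminin chains went in different directions. *Lama5*, the α5 chain that carries the main integrin and dystroglycan binding region of its laminin, had 77.8, 262, 222, 194 and 172 normalized counts in young and 231, 314, 211, 335 and 279 at 24 months. The values were 192, 232, 189, 164 and 111 at 12 months and 182, 152, 248, 295 and 278 at 18 months. The groups overlapped, and 3 of 5 libraries at 24 months exceeded every young one. The means were 185 ± 68.9 (SD, n = 5), 177 ± 44.3, 231 ± 61.6 and 274 ± 52.8 from young to 24 months. The log2 fold change at 24 months was 0.65 ± 0.26 (SE) against young (95% confidence interval 0.11 to 1.18, limma adjusted p = 0.377) and 0.64 ± 0.26 against 12 months (limma adjusted p = 0.260). In that second comparison 0 of the 8 genes passed, beside 0.195% of all genes, and *Lama5* was the 1 gene with an unadjusted p-value below 0.05, beside 14.7% of all genes. The lowest value, that of young replicate 1, carried part of the difference from young: without it the log2 fold change was 0.36 at 24 months (limma adjusted p = 0.791) and 0.06 in aged against young.

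*Lamc1*, the γ1 chain, is shared by most laminins. Its means were 176 ± 38.6 (SD, n = 5) in young, 131 ± 40.6 at 12 months, 162 ± 60.5 at 18 months and 128 ± 29.5 at 24 months, with libraries from 80.2 to 252 normalized counts and overlap between all groups. The log2 fold change was -0.46 ± 0.25 (SE) at 24 months (95% confidence interval -0.98 to 0.06, limma adjusted p = 0.579), -0.46 at 12 months and -0.36 in aged against young. Within a library, log2 *Lama5* minus log2 *Lamc1* was -0.01 ± 0.75 (SD, n = 5) in young, 0.45 ± 0.80 at 12 months, 0.54 ± 0.46 at 18 months and 1.10 ± 0.21 at 24 months. All 5 libraries at 24 months (0.80 to 1.38) lay above the highest young value of 0.70. This difference too was computed after the values were seen, has no test, and in young includes the low *Lama5* of replicate 1.

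None of the other laminin chains passed the test. Of 9 listed, 5 passed the filter and 0 were DEGs against young at any age by limma. In aged against young, 0 of the 5 had an unadjusted p-value below 0.05 and 0 were DEGs with voom. *Lamb1*, the β1 chain and one of the β chains that can join α5 and γ1, had means of 1745 ± 354 (SD, n = 5) in young and 1398 ± 274 at 24 months (log2 fold change -0.32, limma adjusted p = 0.470). At 18 months its mean was 1266 ± 137 and its change -0.45 (limma adjusted p = 0.313). *Lamb1* was the 1 chain of the 5 with an unadjusted p-value under 0.05 at 18 and at 24 months, beside 7.18% and 9.97% of all genes. *Lamb3*, the β3 chain that pairs with α3 and is named here after its values were seen, differed by -0.45 at 24 months (limma adjusted p = 0.555). *Lama3*, the α3 chain of the laminin that anchors hemidesmosomes, differed by 0.06 at 24 months (limma adjusted p = 0.942). The median of the 5 chains was -0.12 in aged against young.

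*Nid1*, nidogen-1, which links laminin γ1 to collagen IV, was lower on average at every older age. It had 349, 229, 133, 134 and 250.4 normalized counts in young and 169, 124, 103, 129.7 and 94.1 at 24 months. The values were 147, 146, 154, 174 and 148 at 12 months and 118, 110.3, 104, 149.6 and 136 at 18 months. The young libraries spread far more than the others, 3 of them standing above all 15 aged ones and 2 lying among them. The means were 219 ± 90.2 (SD, n = 5), 154 ± 11.9, 124 ± 18.9 and 124 ± 29.0 from young to 24 months. Fitted with limma, *Nid1* changed by -0.75 ± 0.23 (SE) on the log2 scale at 24 months (95% confidence interval -1.22 to -0.27, limma adjusted p = 0.179) and -0.73 ± 0.23 at 18 months (limma adjusted p = 0.268). It was -0.41 at 12 months (limma adjusted p = 0.620) and -0.63 ± 0.19 in aged against young (limma adjusted p = 0.156). By two-sided exact permutation, p was 0.0397 at 24 months, 0.0476 at 18 months, 0.167 at 12 months and 0.0047 for aged against young. Without young replicate 1, which had the highest *Nid1*, the aged difference was -0.44 (limma adjusted p = 0.552) and the 12-month difference -0.22 (limma adjusted p = 0.718).

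*Nid2*, its paralog, was barely detected. It was at 0 reads in 15 of the 20 libraries, 3 of them young and 4 in each older group, and the other 5 held 4 to 10 reads. A difference with age was not detectable at this depth. The last 2000 bases of *Nid2* overlap exons of *Rtraf* on the opposite strand, which was not the case with another gene for any of the other 9 genes.

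The heparan sulfate proteoglycans did not separate by age. *Hspg2* encodes perlecan, a large proteoglycan that stores growth factors in basement membranes. Its means were 47.1 ± 23.5 (SD, n = 5) in young, 37.7 ± 13.9 at 12 months, 51.8 ± 23.5 at 18 months and 46.4 ± 6.06 at 24 months. *Hspg2* differed by 0.20 on the log2 scale at 24 months (95% confidence interval -0.70 to 1.09, limma adjusted p = 0.931) and 0.08 in aged against young. Both turned negative without young replicate 1, whose 10.96 normalized counts were the lowest of all 20 libraries, with values of -0.25 and -0.36. *Col18a1* encodes collagen XVIII, whose C-terminal fragment is endostatin. Its means were 20.5 ± 10.95 (SD, n = 5), 13.0 ± 11.4, 12.8 ± 13.1 and 10.5 ± 10.4 from young to 24 months, with 0 reads in 1 library of each older group. The log2 fold change at 24 months was -1.51 ± 1.00 (SE), and its 95% confidence interval ran from -3.57 to 0.55 (limma adjusted p = 0.655). It was -0.83 without 24-month replicate 3, one of the libraries at 0, -2.26 with a pseudocount of 0.1 and -0.65 with one of 10.

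Young replicate 1 thus had the lowest *Lama5*, the lowest *Hspg2* and the highest *Nid1* of the 20 libraries. Over all 20, r of log2 values was -0.549 between *Hspg2* and *Nid1* (-0.632 within ages), 0.450 between *Lama5* and *Hspg2* and 0.635 between *Col4a1* and *Col4a6* (0.358 within ages). The libraries share their depth and animal in both genes of a pair, and these values are descriptions.

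Among the tested genes that act with the collagen IV and laminin networks, 2 were DEGs in aged against young, beside 1.01% of all genes tested. *Sparc* encodes a chaperone and binding protein of collagen IV that stromal fibroblasts also make in quantity. It fell from 882 ± 319 (SD, n = 5) normalized counts in young to 278 ± 62.4, 248 ± 31.0 and 215 ± 37.6 at 12, 18 and 24 months, with a log2 fold change of -1.78 ± 0.17 (SE) in aged against young (limma adjusted p = 1.59e-07). Its lowest young library (476) stood above its highest aged one (339), as in 0.301% of all genes. *Sparc* was the only DEG of 13 tested genes in the list for collagen IV assembly and crosslinking, whose median log2 fold change was -0.01. *P4hb*, a subunit of prolyl hydroxylase, and *Mia3*, which loads collagen into transport vesicles, were its most abundant members and differed by -0.10 and 0.04 (limma adjusted p = 0.934 and 0.977).

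*Frem1*, a Fraser complex protein of the sublaminar zone, was the only DEG of 13 tested genes in the list of other basement membrane components. It rose in aged against young by 2.70 ± 0.66 (SE) on the log2 scale (limma adjusted p = 0.0362), from a low level of 3.36 ± 4.29 (SD, n = 5) normalized counts in young to 20.01 ± 17.9, 27.2 ± 15.98 and 18.1 ± 13.9. The ranges overlapped, and the call was lost with voom (adjusted p = 0.322) and when any of 11 single libraries was left out (limma adjusted p up to 0.145). These were young replicates 1, 2 and 3, 12-month replicates 1 and 4, 18-month replicates 1, 3 and 5, and 24-month replicates 2, 3 and 4. *Fras1*, which binds *Frem1* protein, differed by 0.41 (limma adjusted p = 0.0712), and *Agrn* (agrin) by -0.10 (limma adjusted p = 0.949). The median of the 13 was -0.15. Of 15 tested basement membrane receptors, 0 were DEGs by limma or voom in aged against young. Before adjustment 5 had a limma p-value below 0.05 (2 higher, 3 lower), beside 7.89% of all genes in either direction and 3.92% of them lower. The median of the 15 receptors was -0.04. The most abundant were *Sdc1* (syndecan-1, 0.09) and *Itga6* (integrin α6, -0.21, limma adjusted p = 0.351).

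**Figure D3:**
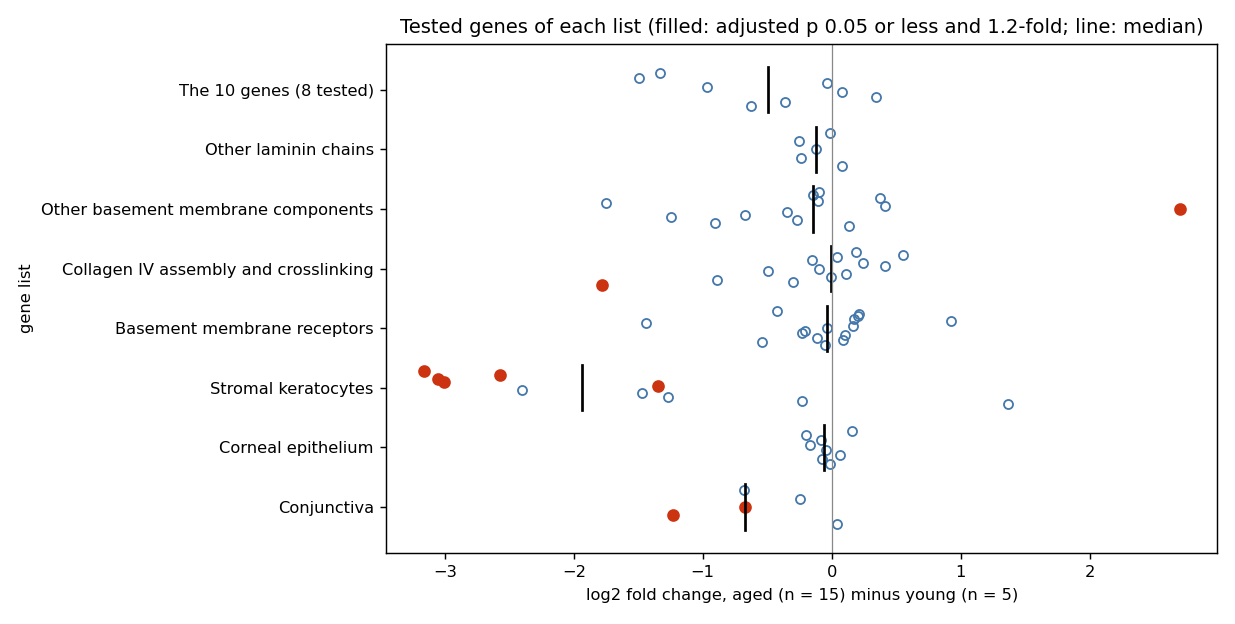
Log2 fold change in aged (n = 15) against young (n = 5) libraries (x axis) for each tested gene of 8 lists (y axis). Filled points are DEGs and vertical lines are medians. The 8 tested basement membrane genes have a median of -0.50 with no DEG, and the corneal epithelial markers lie near 0. Of 10 keratocyte genes, 5 are DEGs, all lower, beside 1.01% of all tested genes. Among them, *Col5a1* and *Col6a1* passed the filter only through their young libraries.

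Genes of stromal keratocytes, the fibroblasts under the epithelium that also make basement membrane proteins, were lower in the same libraries. Of 10 tested, 5 were DEGs in aged against young by limma, all lower (*Col1a1*, *Col1a2*, *Col5a1*, *Col6a1* and *Dcn*), beside 1.01% of all genes. *Col5a1* (mean 33.1 in young, 4.54 in aged) and *Col6a1* (52.2 and 8.26) passed the filter of 10 only through their young libraries. With voom 7 of the 10 were DEGs, beside 162 of all 11288 genes. The median log2 fold change of the 10 by limma was -1.94. The summed level of the 12 listed genes was 1764 to 4602 normalized counts in young, 743 to 1621 at 12 months, 735 to 1437 at 18 months and 392 to 1106 at 24 months, so that no aged library reached the lowest young one. Most of the sum in young was *Dcn*, *Col1a1* and *Col1a2*, with young means of 1022, 929 and 1204. *Kera* and *Lum* overlapped between young and aged. In 18-month replicate 2 they stood at 91.5 and 109, beside 14.8 to 42.8 and 51.2 to 114 in young. Of the 12 genes, *Ptgds* was at 0 in all young and all 24-month libraries. In 12-month replicate 3 it was at 532.5, where the 12 genes summed to 1274. The list was chosen with earlier results of these libraries known, and its direction is no independent evidence.

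**Figure D4:**
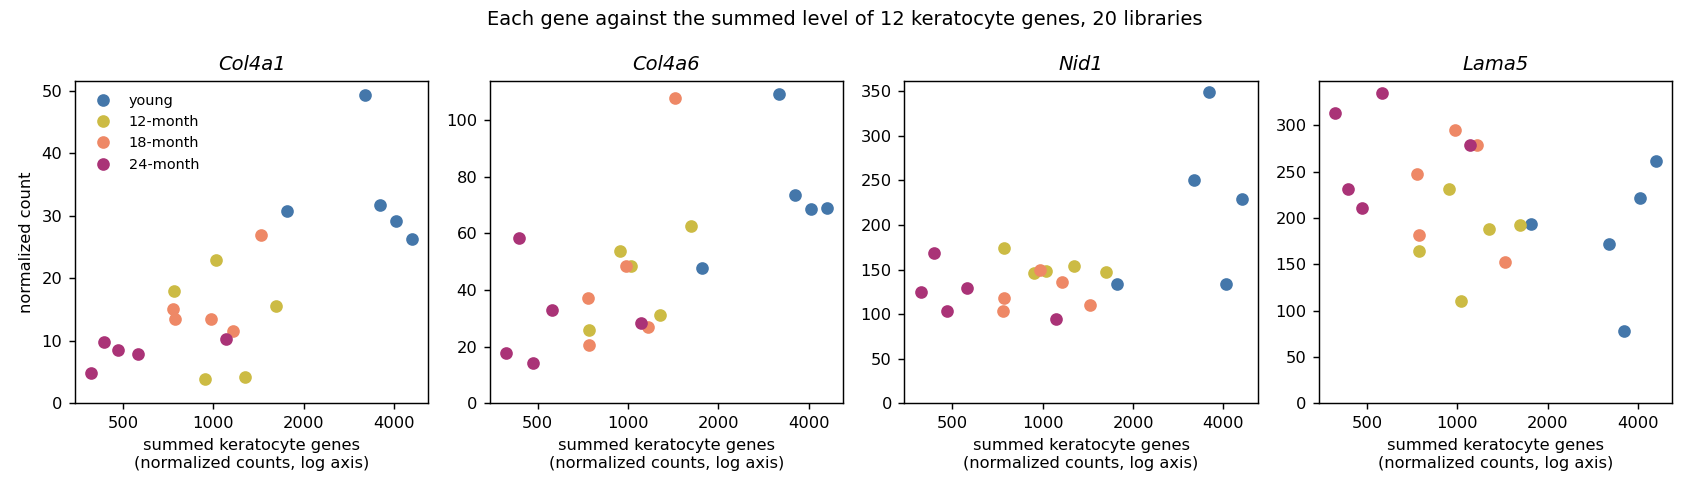
Normalized counts (y axis, linear) of *Col4a1*, *Col4a6*, *Nid1* and *Lama5* against the summed normalized counts of 12 keratocyte genes (x axis, log scale), with 1 point per library coloured by age. The young libraries (1764 to 4602 on the x axis) stand to the right of all aged ones (392 to 1621), so age and this sum are not separated. Most of the sum in young is *Dcn*, *Col1a1* and *Col1a2*.

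The log2 level of *Col4a1* and the mean log2 level of the 10 tested keratocyte genes had r = 0.724 over the 20 libraries and r = 0.119 for deviations from the age means. The values were 0.671 and 0.320 for *Col4a6*, 0.615 and 0.127 for *Nid1*, and -0.409 and 0.00509 for *Lama5*. The part of the keratocyte level in the differences of *Col4a1*, *Col4a6* and *Nid1* was not tested. Of 5 tested conjunctival markers, 2 were DEGs in aged against young, both lower (*Krt4* and *Krt19*), beside 1.01% of all genes. The summed level of the 6 listed was 28461 to 49815 in young, 24411.5 to 40020 at 12 months, 27576 to 37324 at 18 months and 24802 to 29951 at 24 months, with overlap between all ages. Most of this sum was *Krt13*, which was no DEG (limma adjusted p = 0.619). For vessels, whose walls are rich in collagen IV, 1 of 9 markers (*Kdr*) passed the filter and was no DEG, with sums of 28.6 to 86.3 in young, 0 to 46.9 at 12 months, 15.9 to 28.7 at 18 months and 13.1 to 44.2 at 24 months. In the 6 tested immune genes 0 were DEGs by limma and 1 had an unadjusted p-value below 0.05 (*Cd74*, -1.05, a DEG with voom), beside 7.89% of all genes. The immune sums were 273 to 434 in young, 149 to 279 at 12 months, 242 to 475 at 18 months and 176 to 254 at 24 months. For corneal endothelium, Schwann cells and melanocytes, 0 of 3, 0 of 1 and 0 of 2 tested markers were DEGs by limma or voom in aged against young, with 0 below 0.05 before adjustment. The melanocyte sums were 60.7 to 112 in young and 75.4 to 1049 at 12 months. They were 67.2 to 101 at 18 months and 44.2 to 86.2 at 24 months. The highest was that of 12-month replicate 3, with *Dct* at 904 and *Tyrp1* at 96.4. The part of these cells in the results was not tested either.

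The genes whose log2 levels were most like those of each tested basement membrane gene over the 20 libraries were found by Pearson r. *Lama5* had the closest neighbours, *Mif4gd* (r = 0.924), *Sh3bp1* (0.897) and *Jup* (0.888, the junction protein plakoglobin), with r of 0.848 to 0.896 within ages. *Nid1* was most like *Phkb* (0.844), *Il1r2* (0.801) and *Epb41* (0.733). *Col4a1* was most like *Mucl2* (0.794), *Golim4* (0.773) and *Obp1b* (0.769), and *Col4a6* most like *Mrpl32* (0.769), *Col5a2* (0.746, a fibrillar collagen chain) and *Gm6712* (0.723). The nearest to *Hspg2* were *Tspo* (0.800), *Arhgap1* (0.794) and *Rpa1* (0.768), and those to *Col18a1* were *Uck2* (0.823), *Timm10* (0.780) and *Xlr4a* (0.759). *Lamc1* was most like *Cd63* (0.734), *Dcp1a* (0.718) and *Mex3c* (0.708), and *Col4a5* had the weakest neighbours, *Rpe* (0.669), *Als2cr12* (0.654) and *Ogfod3* (0.641). Within ages, r was 0.354 to 0.632 for the neighbours of *Col4a1*, 0.567 to 0.698 for those of *Col4a6* and 0.592 to 0.748 for those of *Nid1*. For those of *Hspg2*, *Col18a1*, *Lamc1* and *Col4a5* it was 0.652 to 0.854. The values over all 20 libraries are the highest of 11280 per gene. The libraries share their depth and animal, so all these values are descriptions of these libraries.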

How the data were processed

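RNA from debrided corneal epithelium was made into 3′ libraries with oligo-dT priming and sequenced. Per the study's methods, the authors used cutadapt for trimming, FastQC for quality control, STAR for alignment to GRCm38, HTSeq for counting reads per gene and DESeq2 size factors for normalization. The values deposited by the authors are on a log2 scale, after adding 1 to each normalized count. Multiplied by the size factor, 100% of the values in every library were whole reads within 0.01. The deposited tables also hold the fold changes, p-values and mean signal of the authors' comparisons, which were not used.

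The 20 libraries, grouped by the ages in their labels, were fitted with limma 3.58.1 in R 4.3.3 (variance trend on mean expression, Benjamini-Hochberg adjustment over 11288 genes). The comparisons by age came from 1 fit of the 4 ages, and aged against young from a fit of 2 groups. Exact permutation tests, correlations and plots used Python 3.11.15, numpy 2.4.6, pandas 2.3.3 and matplotlib 3.10.9. The fits were tested on simulated data. Confidence intervals are limma's at the 95% level and rest on the spread between libraries, while floors for 0 reads cover counting error only. A fold change is a difference of mean log2 values with a pseudocount of 1. The pseudocount draws the change of low genes toward 0, while libraries at 0 reads can carry it past the ratio of mean counts. At 24 months *Col18a1* changed by -1.51 on the log2 scale, beside a ratio of mean counts of 0.512.

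The 10 genes, the lists and the tests were chosen with earlier results of these data known. The genes named are the 10, every DEG of the basement membrane lists and the 2 most abundant genes of each of those lists, DEGs and leading genes among cell type markers, and the 3 genes most like each tested gene. *Rtraf*, *Ptgds*, *Kera*, *Lum* and *Tyrp1* were named after their values or positions were seen. Libraries are separate animals, but the animal, the debridement and the library preparation are not separated, so p-values measure the spread of all of these. Over 40 pairs of same-age libraries the chi-square per degree of freedom ran from 11.3 to 107.2, so no library repeated another. Replicate numbers give no pairing between ages: deviations of same-numbered libraries of different ages had r from -0.30 to 0.16 (30 pairs).

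Gene positions and promoter windows are RefSeq (GRCm38.p6), exons GENCODE M21. The alternatives were voom on the recovered reads, quantile normalization, size factors recomputed over the tested genes, no filter, a filter at 50, a fit of the compared groups alone, a block for the replicate number, fold thresholds of 1.5 and none, pseudocounts of 0.1 and 10, and leaving out each of the 20 libraries.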

Additional observations from a re-analysis of the deposited data

Results flagged for a closer look

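In 6 of 40 groups of 5 values (10 genes at 4 ages), 1 library stood further from the rest than Dixon's criterion allows at the 95% level, where chance flags about 1 in 20 groups. *Col4a1* was high in young replicate 5, at 49.3 normalized counts beside 26.2 to 31.8 in the other 4, and in 18-month replicate 2, at 27.0 beside 11.6 to 15.1. *Col4a2* was high in 18-month replicate 5, at 20.3 beside 0 to 3.66. *Nid2* was at 10.7 in 12-month replicate 3, 4.48 in 18-month replicate 4 and 4.88 in 24-month replicate 1, each beside 4 libraries at 0. In such a group the criterion is met by any detection, so these 3 of the 6 rest on 5 to 10 reads each and are not set against the chance rate. Without young replicate 5, the log2 fold change of *Col4a1* in aged against young was -1.35 (limma adjusted p = 0.369), and without 18-month replicate 2 it was -1.58 (limma adjusted p = 0.0750).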

How the results depend on the processing

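In aged and in 24-month against young, no alternative turned the median of the tested genes or the direction of *Col4a1*, *Col4a6*, *Lama5*, *Lamc1*, *Nid1* or *Col18a1*. The number of DEGs among the 10 genes moved from 0 to 1 (*Col4a1*) in aged against young with voom and with a pseudocount of 10, and in 24-month against young with a pseudocount of 10 (-1.24, limma adjusted p = 0.0423). Of all 11288 genes, 162 (voom) and 132 (pseudocount of 10) were then DEGs in aged against young, and 100 (pseudocount of 10) in 24-month against young. The number among the 10 genes was 0 in every fit that left out 1 library. With the filter at 50, which keeps 4 of the genes, the median log2 fold change moved to -0.20 (aged), -0.28 (24 months), 0.035 (18 months) and 0.077 (24 against 12 months, -0.17 as reported). Leaving out 1 library gave medians from -0.66 to -0.40 in aged, -0.86 to -0.50 at 24 months, -0.80 to -0.35 at 18 months, -0.58 to -0.34 at 12 months and -0.26 to 0.19 for 24 against 12 months, and 10 of these 20 fits test 9 genes, since *Col4a2* then passes the filter. The sign of *Col4a5* turned in some of them (-0.21 to 0.078 in aged, -0.28 to 0.083 at 24 months), as did that of *Hspg2* (-0.36 to 0.30 and -0.25 to 0.42). The cause was not tested. *Frem1* in aged against young missed the threshold with no filter (limma adjusted p = 0.0513), with the replicate block (limma adjusted p = 0.056), with voom and with a pseudocount of 10 (limma adjusted p = 0.109). Over all genes, the 22 DEGs of 24 against 12 months became 0 with no filter, 35 with the filter at 50, 11 with the block or the compared groups alone, and 0 to 84 without 1 library. The 60 of 12-month against young became 39 with the compared groups alone, 38 with voom and 37 to 96 without 1 library. With the replicate block, 0 of the 10 genes were DEGs in any comparison, and *Sparc* was still one in aged and in 24-month against young. Same-numbered libraries of different ages (median r = 0.00775) were about as alike as other pairs (median r = 0.00352), so the numbers pair no libraries. Genes with few reads per library (*Col4a2*, *Nid2*, *Col18a1* and, in aged libraries, *Col4a1*) are limited by depth.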
